A study of Mus musculus with 22 samples.

Results

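The SLC25 family, the mitochondrial carriers, was followed through the hypothyroid and thyroid hormone-treated groups of a mouse RNA-seq series covering striatum and white adipose tissue (WAT). Members were the symbols made of Slc25a and a number with a mean normalised count above 10 over all libraries of a tissue. Each tissue's count table held 48 symbols that begin in this way, and 1 of these, Slc25a5-ps, is annotated as a pseudogene and was kept apart. Of the others, 39 passed the minimum in striatum and 40 in WAT, 38 passed in both tissues and 41 in at least 1, out of 15827 and 17928 genes that passed in the respective tables. The minimum fell in a gap: Slc25a47 in striatum, at a mean normalised count of 9.25, was the nearest below it and Slc25a13 in WAT, at 16.7, the nearest above. The members below it were Slc25a2, Slc25a21, Slc25a31, Slc25a41, Slc25a43 and Slc25a54 in both tissues, Slc25a47 and Slc25a48 in striatum and Slc25a18 in WAT.

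All 22 libraries came from wild-type C57BL/6J mice labelled as males of 8 weeks. The PTU groups, labelled hypothyroid after 2 weeks of propylthiouracil, an inhibitor of thyroid hormone synthesis, had 2 libraries in striatum and 4 in WAT. The TH groups, labelled only as treated with thyroid hormone for a stated time, had 4 libraries each, at 12 h and 24 h in striatum and at 6 h and 24 h in WAT. The study's overview lists PTU before the hormone injection for WAT but not for striatum, so the striatum contrasts may differ in more than hormone. Totals ran from 8.04 M to 10.1 M counts in striatum and from 17.3 M to 26.9 M in WAT (M, 1e6 counts), and members held 0.275% to 0.337% of them.

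Most SLC25 proteins sit in the inner mitochondrial membrane, where each binds its substrate on one side and releases it on the other, often in exchange for a second molecule. They bring ADP and phosphate to ATP synthase, pass citrate, malate and amino acids between matrix and cytosol, and supply the matrix with cofactors that it cannot make. In adipocytes, citrate export feeds fatty acid synthesis and acylcarnitine import feeds fatty acid oxidation, and in neurons the aspartate/glutamate and glutamate carriers serve energy metabolism and transmitter handling. The uncoupling proteins belong to the same family under other symbols.

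Some properties of the libraries bear on the values that follow. Hr, a gene known to respond to thyroid hormone, was higher in every hormone group (log2 fold change 2.49 ± 0.21 (SE) and 2.68 ± 0.21 at 12 h and 24 h in striatum, 3.56 ± 0.19 and 4.19 ± 0.19 at 6 h and 24 h in WAT, each past the test). The striatum calls of Hr were lost without PTU replicate 3 (adjusted p = 0.129 and 0.066), and the one at 24 h also with the 2 groups of the contrast alone (0.0824). In striatum, the summed normalised count of 10 cortical excitatory neuron markers was 7030 to 11400 in the PTU group, 17300 to 23700 at 12 h and 12300 to 37200 at 24 h, and that of 12 striatal projection neuron markers was 45500 to 65400, 26700 to 42000 and 6150 to 67700. The lowest projection neuron sum and the highest cortical sum were in TH 24 h replicate 2. Xist exceeded 4 Y-linked genes together in 6 of the 10 striatum libraries, 1 of 2 in the PTU group, 1 of 4 at 12 h and 4 of 4 at 24 h, and in 0 of the 12 WAT libraries, against labels that say male throughout. In WAT, the sum of 12 skeletal muscle markers ran from 2590 to 604000 in the PTU group, from 1080 to 109000 at 6 h and from 43800 to 325000 at 24 h. The sum of 9 brown or beige adipocyte markers was 1930 to 3780, 5980 to 11100 and 8910 to 24800, with 4 of 9 higher at 6 h and 7 of 9 at 24 h, and 4 of 7 white adipocyte markers and 2 of 6 stratified epithelium markers were lower at 24 h. Ucp1, 1 of these 9 brown or beige markers, is itself of the SLC25 family, so this sum is not independent of the family. Defining markers of the labelled tissue were present throughout, with Drd1 at 151 normalised counts or more in striatum and Adipoq at 32290 or more in WAT. None of the muscle markers and none of the cortical or projection neuron markers passed in a comparison with PTU in their tissue. In bulk RNA of this kind, fewer cells of a type and less RNA per cell cannot be told apart.

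Of the 12 members that passed the test in 1 or more comparisons with PTU or between times, 10 had a promoter window in the RefSeq-derived table for GRCm38.p6, and both genes shown here rose in WAT at both times. Slc25a33, a pyrimidine nucleotide carrier (chr4:149744036-149774277, minus strand), was also called higher in both tissues, and Slc25a42, a carrier of coenzyme A (chr8:70184340-70212305, minus strand), had the largest difference in response between tissues among members. The 250 bases before each start are printed 5′ to 3′, at chr4:149774268-149774517 and chr8:70212282-70212531, both on the minus strand. Capitals mark matches on either strand to the CCAAT box (CCAAT), the GC box (GGGCGG) and the E-box (CACGTG), none of which overlap in these windows.
Slc25a33: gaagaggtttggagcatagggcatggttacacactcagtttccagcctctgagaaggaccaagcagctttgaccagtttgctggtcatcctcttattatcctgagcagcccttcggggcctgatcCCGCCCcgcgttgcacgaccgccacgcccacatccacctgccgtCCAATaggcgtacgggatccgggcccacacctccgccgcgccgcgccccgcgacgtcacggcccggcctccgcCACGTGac
Slc25a42: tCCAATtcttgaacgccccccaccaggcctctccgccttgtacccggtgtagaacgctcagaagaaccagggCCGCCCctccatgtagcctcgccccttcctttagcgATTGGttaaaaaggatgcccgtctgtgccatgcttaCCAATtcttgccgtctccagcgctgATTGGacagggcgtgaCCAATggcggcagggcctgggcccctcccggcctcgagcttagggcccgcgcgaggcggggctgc

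The Slc25a42 window held 5 CCAAT boxes and 1 GC box, and the Slc25a33 window 1 CCAAT box, 1 GC box and 1 E-box. Windows were found for 36 numbered symbols, Slc25a21, Slc25a31, Slc25a43 and Slc25a54 from below the minimum among them. A symbol counted if any of its windows matched, over 46 windows together. Of the 36, 25 (69.4%) held a GC box, 18 (50%) a CCAAT box and 7 (19.4%) an E-box. Of all 32851 windows, each counted singly, 32.7%, 33.8% and 6.02% did, so the shares are not in the same unit. AGGTCA, the half-site that thyroid hormone receptors bind, was found in 4 of these 36 symbols (11.1%), in 0 of the 10 that passed a test, and in 14% of all windows. A match is a description of these letters and not a binding site, and windows so short say nothing of more distant ones.

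The family's make-up was compared within each tissue as normalised counts per kilobase of exon, which put genes of different length on 1 scale. In striatum of the PTU group, the highest members were Slc25a3, the phosphate carrier, at 1070 ± 119 per kb (SD, n = 2), Slc25a23, an ATP-Mg/phosphate carrier, at 840.0 ± 95.4, and Slc25a4, the ADP/ATP carrier ANT1, at 619 ± 55.0. Slc25a3 and Slc25a23 did not differ beyond their spread at 12 h (1140 ± 73.7 and 1160 ± 26.5 per kb, n = 4). In WAT of the PTU group the order was Slc25a1, the citrate carrier, at 8380 ± 1060 per kb (n = 4), Slc25a5, the ADP/ATP carrier ANT2, at 4500 ± 349, and Slc25a4 at 2080 ± 982. Slc25a10, the dicarboxylate carrier, followed at 1660 ± 267 and was within the spread of Slc25a4. In other substrate groups of WAT the highest were Slc25a39, a glutathione carrier, at 935 ± 66.6, Slc25a44, a branched-chain amino acid carrier, at 380.0 ± 124, Slc25a20, the carnitine/acylcarnitine carrier, at 286 ± 15.7, and Slc25a28, an iron carrier (mitoferrin 2), at 122 ± 3.91. In striatum they were Slc25a11, the oxoglutarate/malate carrier, at 381 ± 36.7, Slc25a22, a glutamate carrier, at 328 ± 24.9, Slc25a51, the NAD carrier, at 187 ± 9.48, and Slc25a37, an iron carrier (mitoferrin 1), at 166 ± 4.59. Slc25a46 stood at 176 ± 20.4 there, Slc25a27 at 124 ± 19.9 and Slc25a20 at 21 ± 2.11.

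Nucleotide and phosphate carriers held most of the summed level per kb in striatum, 50.9% ± 2.18 (SD, n = 2) in PTU, 50.8% ± 0.778 (n = 4) at 12 h and 51.8% ± 1.57 at 24 h. In WAT, carriers of di- and tricarboxylates held 45.8% ± 3.80 of the summed level in PTU, 43.1% ± 3.87 at 6 h and 32.6% ± 4.54 at 24 h. Their PTU libraries (40.3% to 49.0%) did not overlap those at 24 h (36.5% at most). Among these carriers, Slc25a1 went from 35.8% ± 3.17 in PTU to 25.4% ± 4.03 at 24 h and Slc25a10 from 7.14% ± 1.28 to 4.15% ± 0.865. Slc25a1, the larger part, was not called at 24 h. Carriers of cofactors and pyrimidine nucleotides held 6.21% ± 0.414 in PTU, 10.4% ± 0.699 at 6 h and 10.7% ± 0.365 at 24 h, and the PTU libraries (5.61% to 6.53%) again lay apart from both hormone groups. The shares are given as a description.

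**Figure D1:**
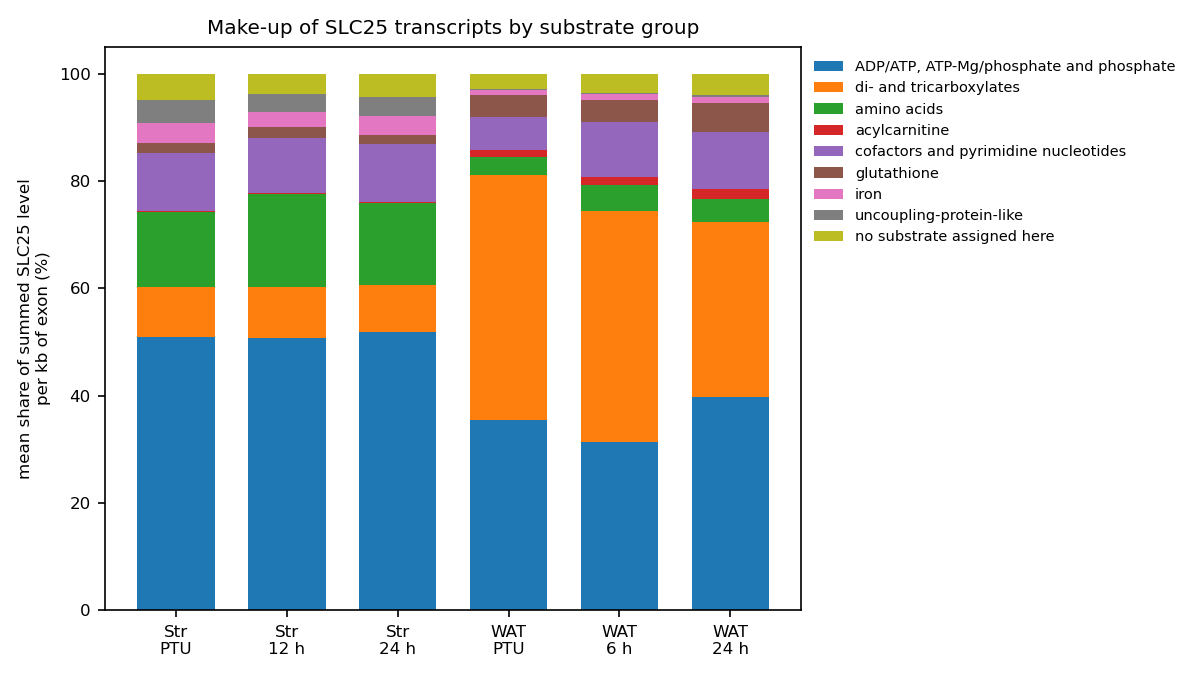
Mean share of the summed SLC25 level per kb of exon (y axis, percent) in each group (x axis, Str for striatum), stacked by substrate group. In WAT the di- and tricarboxylate carriers go from 45.8% in PTU to 32.6% at 24 h while cofactor and pyrimidine nucleotide carriers go from 6.21% to 10.7%, and in striatum nucleotide and phosphate carriers stay between 50.8% and 51.8%.

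Every comparison of groups used the edgeR quasi-likelihood test over all genes of the tissue, and a member was called at a Benjamini-Hochberg adjusted p under 0.05. In WAT at 6 h, 7 of 40 members (17.5%) were called, all higher than in PTU, where 7.23% of all genes were called, 4.18% higher and 3.05% lower. At 24 h, 11 of 40 (27.5%) were called, 9 higher and 2 lower, against 17.1% of all genes (7.45% higher and 9.62% lower). Between 6 h and 24 h, 5 of 40 (12.5%) were called, 2 higher and 3 lower at 24 h, against 7.41% of all genes (3.07% higher and 4.35% lower). Groups did not overlap for 10, 11 and 12 of the 40 members in these comparisons, beside 13.9%, 19.3% and 21.8% of all genes. The median log2 fold change of members against PTU was 0.08 at 6 h and 0.15 at 24 h, beside -0.03 and 0.00 over all genes tested.

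**Figure D2:**
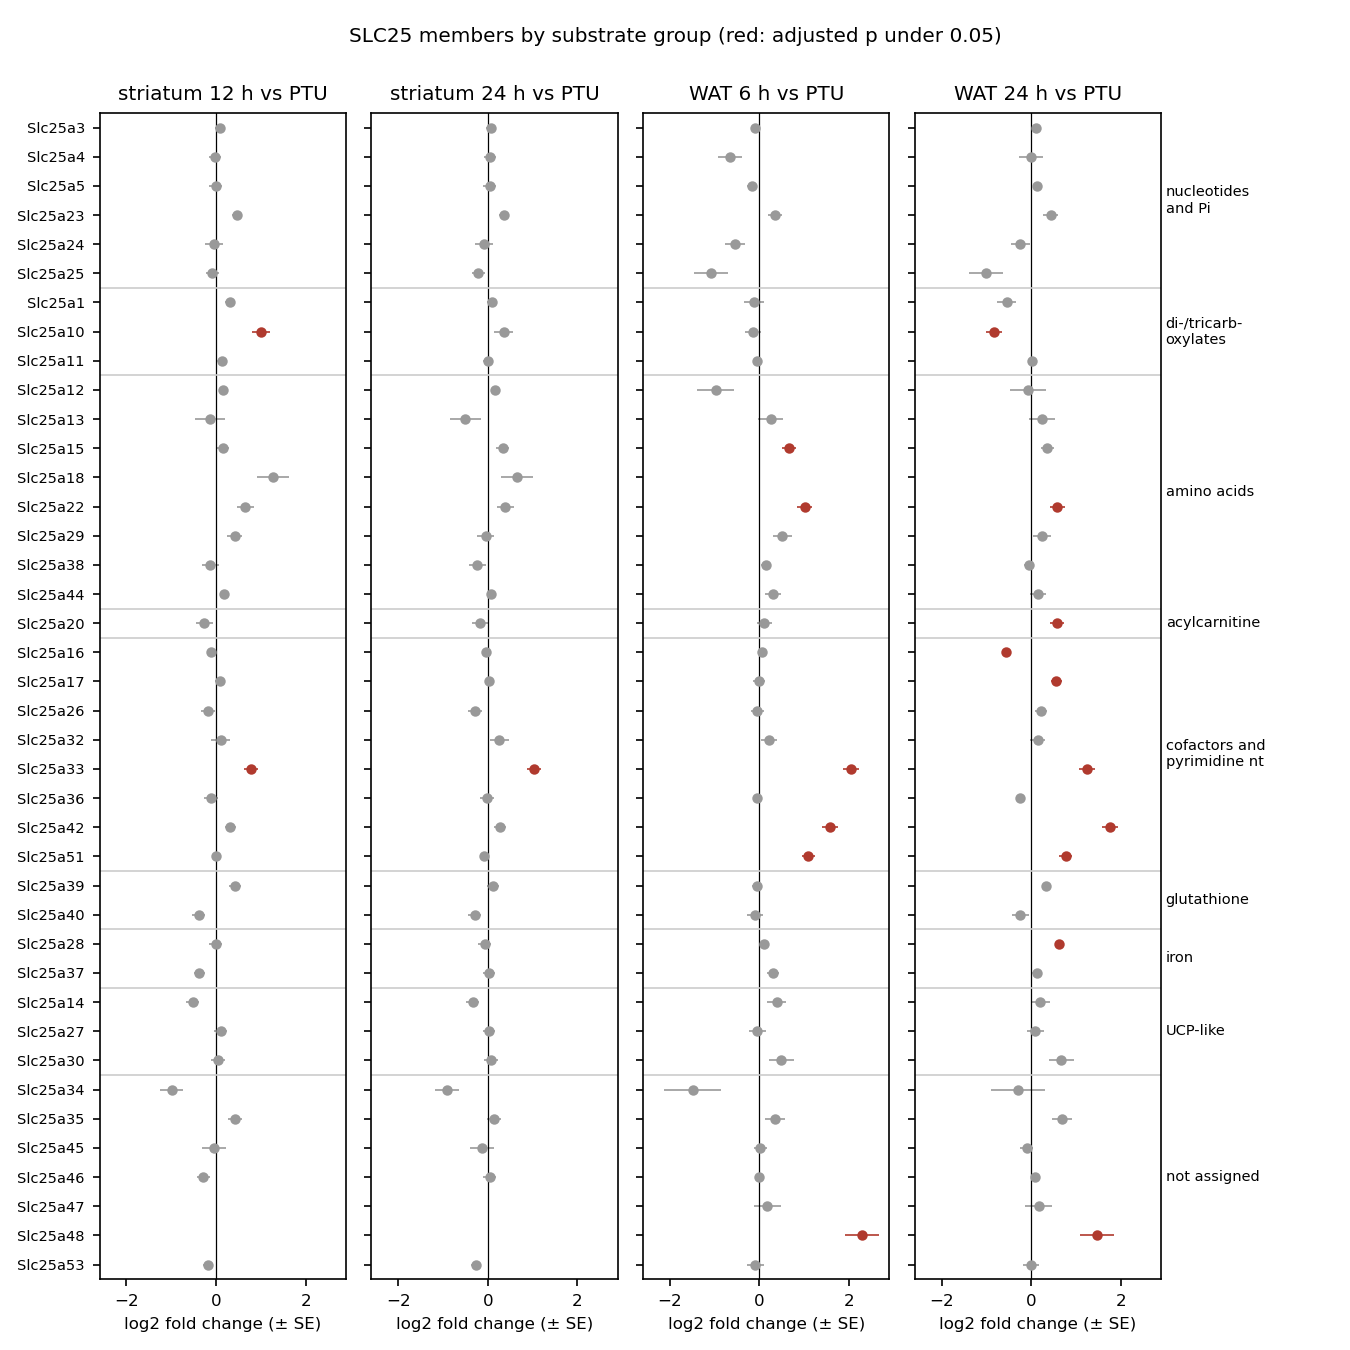
log2 fold change against PTU with its SE (x axis) for members tested (rows, grouped by substrate) at 12 h and 24 h in striatum and at 6 h and 24 h in WAT. Red points passed an adjusted p of 0.05, and in WAT at 24 h 5 of the 8 cofactor and pyrimidine nucleotide carriers shown are red while the 6 nucleotide and phosphate carriers are grey. Of all genes, 17.1% passed in that comparison.

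The cofactor and pyrimidine nucleotide carriers, the largest substrate group, held the most calls in WAT. At 6 h 4 of 9 rose, where 4.18% of all genes were called higher. At 24 h 5 of 9 rose and 1 fell, against 7.45% of all genes higher and 9.62% lower. Slc25a33 imports pyrimidine nucleotides, which mitochondrial DNA and RNA synthesis need. Its normalised counts in WAT were 110, 114, 109 and 145 in the 4 PTU libraries, 432, 363, 596 and 587 at 6 h, and 238, 271, 333 and 284 at 24 h. Every hormone library was above every PTU library, and the 24 h libraries all lay below those at 6 h. The log2 fold change was 2.05 ± 0.18 after 6 h (4.14-fold, adjusted p = 3.42e-05) and 1.24 ± 0.18 after 24 h (2.36-fold, adjusted p = 6.57e-04), and Slc25a33 fell by 0.81 on the log2 scale from 6 h to 24 h (SE 0.17, adjusted p = 0.0157). Gm13068, which shares 281 exon bases with Slc25a33 on the other strand, had a highest normalised count of 0.97 in any WAT group.

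Slc25a42 supplies the matrix with coenzyme A. Its WAT libraries had normalised counts of 248, 243, 292 and 229 in PTU, 889, 626, 763 and 738 at 6 h and 683, 881, 1198 and 660 at 24 h. The PTU libraries lay apart from both hormone groups, which overlapped each other. The gene rose by 1.57 ± 0.18 after 6 h (adjusted p = 3.68e-04) and by 1.76 ± 0.18 after 24 h (adjusted p = 8.25e-05) on the log2 scale, and the difference between the times, 0.18 ± 0.18, did not pass (adjusted p = 0.571).

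Slc25a51 brings NAD into the matrix. Its WAT normalised counts were 2082, 1548, 1612 and 1492 in PTU, 3378, 3119, 3674 and 4123 at 6 h and 2390, 3262, 3278 and 2530 at 24 h, again without overlap with PTU. The log2 fold change was 1.09 ± 0.14 after 6 h (adjusted p = 8.47e-04) and 0.77 ± 0.14 after 24 h (adjusted p = 0.00365).

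A further 2 cofactor carriers were called at 24 h, in opposite directions. Slc25a17, a peroxisomal carrier of coenzyme A and related cofactors (chr15:81318911-81360812), had 1006, 961, 858 and 713 normalised counts in PTU, 840, 840, 874 and 970 at 6 h and 1206, 1238, 1646 and 1139 at 24 h. All 24 h libraries were above all others, and the log2 fold change was 0.56 ± 0.13 against PTU (adjusted p = 0.012) and 0.57 ± 0.13 against 6 h (adjusted p = 0.0226). The call against 6 h was lost in 4 of 12 fits that left out 1 library, those without TH 6 h replicate 1, 2 or 3 or TH 24 h replicate 3 (adjusted p = 0.0516 to 0.0707). Slc25a16, which is placed with the coenzyme A carriers (chr10:62920633-62946498), had 918, 1033, 831 and 876 in PTU, 965, 878, 976 and 992 at 6 h and 592, 544, 662 and 664 at 24 h. Its 24 h libraries were below all others, and it fell by 0.57 on the log2 scale against PTU (SE 0.09, adjusted p = 0.00163) and by 0.63 against 6 h (SE 0.09, adjusted p = 0.00259). The 3 uncalled members of the group, Slc25a26, Slc25a32 and Slc25a36, carriers of S-adenosylmethionine, folate and pyrimidine nucleotides, did not pass in WAT. Slc25a36 came nearest, at -0.24 ± 0.08 after 24 h (adjusted p = 0.0596, 0.0238 by DESeq2).

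**Figure D3:**
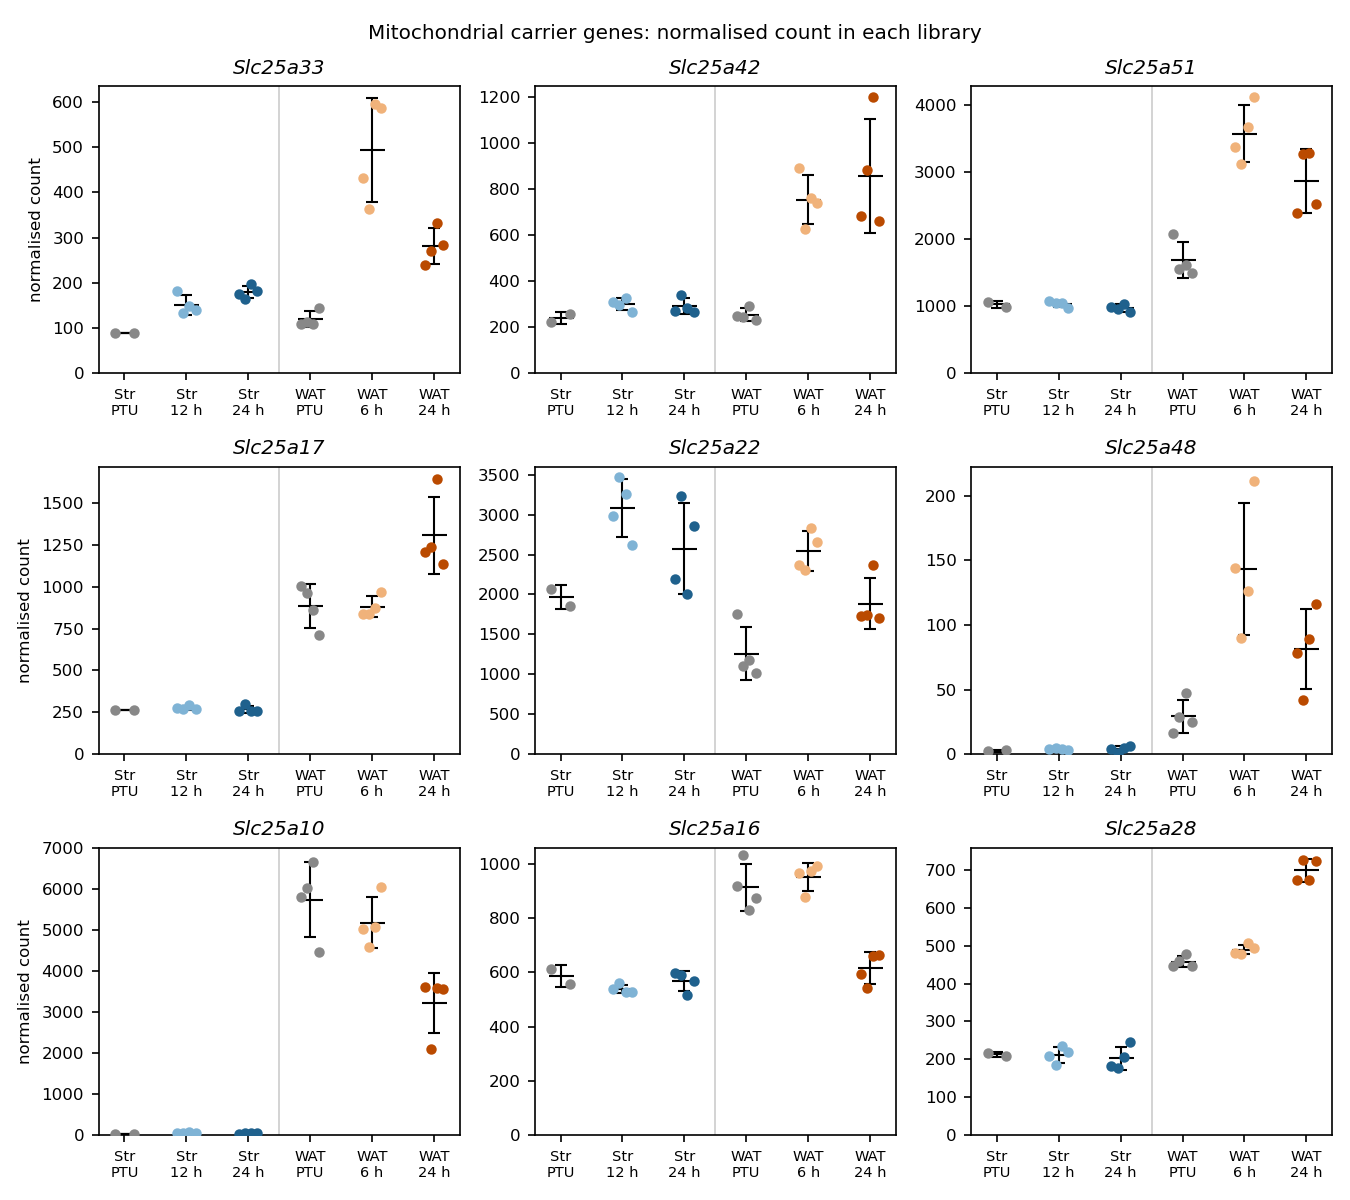
Normalised count (y axis, from 0, a scale for each gene) of 9 members in each library, by group (x axis, Str for striatum), with group mean and SD in black. For Slc25a33, Slc25a42 and Slc25a51 the hormone-treated WAT libraries all lie above the 4 PTU libraries, and Slc25a33 is the one of these in which the striatum hormone libraries (133 to 196) also lie well above PTU (88.0 in both).

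Among the 7 amino acid carriers tested in WAT, 2 rose at 6 h and 1 at 24 h. Of all genes, 4.18% and 7.45% were called higher at these times. Slc25a22, a glutamate carrier (chr7:141429744-141437892), had 1751, 1099, 1178 and 1010 normalised counts in PTU, 2372, 2311, 2835 and 2657 at 6 h and 1733, 1738, 2371 and 1699 at 24 h. The 6 h libraries were above all PTU libraries, whereas those at 24 h overlapped PTU replicate 1. It rose by 1.01 ± 0.17 after 6 h (adjusted p = 0.00368) and by 0.58 ± 0.17 after 24 h (adjusted p = 0.033), and the latter call was lost in 5 of the 12 fits that left out 1 library and with a skeletal muscle covariate (adjusted p = 0.0519). Slc25a15, the ornithine carrier of the urea cycle (chr8:22375551-22398597), had 149, 157, 115 and 148 in PTU, 235, 208, 214 and 242 at 6 h and 200, 139, 177 and 215 at 24 h. It rose by 0.66 ± 0.15 after 6 h (adjusted p = 0.0176), with no overlap, and its 24 h value of 0.36 ± 0.15 did not pass (adjusted p = 0.107).

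Slc25a12, the aspartate/glutamate carrier aralar, did not pass in any comparison and varied widely between WAT libraries: 559, 201, 233 and 845 normalised counts in PTU, 233, 240, 262 and 193 at 6 h and 450, 700, 273 and 322 at 24 h. Its 4 highest values were in the 4 libraries with the highest skeletal muscle sums, PTU replicates 4 and 1 (604000 and 248000) and TH 24 h replicates 2 and 1 (325000 and 199000). At 6 h its log2 fold change was -0.98 ± 0.42 with all libraries and 0.11 without PTU replicates 1 and 4. The same 4 libraries held the 4 highest Slc25a4 counts, 8058, 4964, 6313 and 4818, and the other 8 ran from 2586 to 4397.

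Slc25a20, which takes acylcarnitines into the matrix for oxidation (chr9:108662088-108684641), had 1451, 1376, 1429 and 1280 normalised counts in PTU, 1385, 1394, 1664 and 1548 at 6 h and 1544, 2242, 2794 and 1642 at 24 h. It rose at 24 h (0.57 ± 0.16, adjusted p = 0.0285) with no overlap, and at 6 h its value was 0.11 ± 0.16 (adjusted p = 0.69). The high 24 h libraries, replicates 2 and 3, also had the highest brown or beige marker sums, 20800 and 24800 against 8910 and 9130 in replicates 1 and 4, and the part of this in the result was not tested. Without replicate 3 the log2 fold change was 0.39 (adjusted p = 0.0628), and 3 other fits that left out 1 library (PTU replicate 2 or 4, TH 24 h replicate 2) also lost the call. So did the 2 groups of the contrast alone (adjusted p = 0.0706) and the fit with PTU replicates 1 and 4 left out (0.0787).

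**Figure D4:**
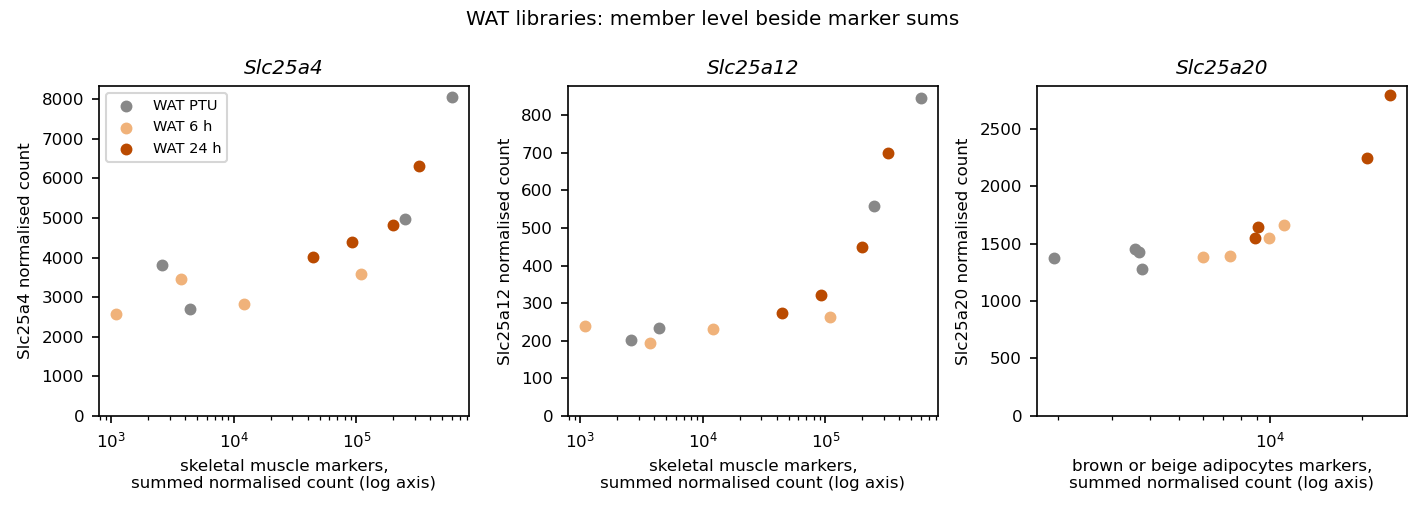
Normalised count of Slc25a4, Slc25a12 and Slc25a20 (y axes) in each WAT library against the summed normalised count of skeletal muscle or brown or beige adipocyte markers (x axes, log scale), coloured by group. Slc25a12 is highest in the 4 libraries with the highest muscle sums, and Slc25a20 (2242 and 2794) in the 2 libraries with the highest brown or beige sums.

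Of the 3 di- and tricarboxylate carriers in WAT, Slc25a10 fell. It exchanges malate or succinate for phosphate (chr11:120491840-120499187), and its WAT normalised counts were 5813, 6030, 6674 and 4477 in PTU, 5025, 4579, 5069 and 6056 at 6 h and 3617, 2110, 3584 and 3567 at 24 h. Every 24 h library was below every other, and the gene fell by 0.84 on the log2 scale against PTU (SE 0.18, adjusted p = 0.00744) and by 0.69 against 6 h (SE 0.18, adjusted p = 0.0371). The second of these was lost in 7 of 12 fits that left out 1 library and with the muscle covariate (adjusted p = 0.177). Its antisense gene Gm11788 had at most 7.38 normalised counts in a WAT library. Slc25a1, the citrate carrier, ran from 15360 to 21000 in PTU and from 8862 to 16250 at 24 h. These overlapped, and its log2 fold change of -0.55 ± 0.22 did not pass (adjusted p = 0.101, 0.0475 by DESeq2). Slc25a11 was at 0.02 ± 0.10 at 24 h.

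Of the 2 iron carriers, Slc25a28 rose in WAT at 24 h and Slc25a37 was not called. Slc25a28 (chr19:43663801-43674881) had 447, 459, 478 and 448 normalised counts in PTU, 481, 479, 507 and 493 at 6 h and 672, 727, 673 and 725 at 24 h. The spread within groups was small beside the step at 24 h, which was 0.61 ± 0.07 against PTU (adjusted p = 1.50e-04) and 0.51 ± 0.07 against 6 h (adjusted p = 0.0014).

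Slc25a48 (chr13:56438355-56474239), for which no substrate was assigned here, had the largest fold change of any member at 6 h. It was a low gene, with 16.3, 28.7, 46.9 and 24.6 normalised counts in the WAT PTU libraries, 144, 90.1, 126 and 212 at 6 h and 78.1, 41.7, 89.2 and 116 at 24 h. It rose by 2.28 ± 0.38 after 6 h (4.87-fold, adjusted p = 0.0034), without overlap. At 24 h TH replicate 2 lay below PTU replicate 3, and the rise of 1.46 ± 0.38 (adjusted p = 0.0192) was lost without PTU replicate 2 (adjusted p = 0.0527), without TH 24 h replicate 4 (0.0555) or with PTU replicates 1 and 4 left out (0.102). In striatum its mean was 3.59, under the minimum. DESeq2 called Slc25a35, also with no substrate assigned, higher in WAT at 24 h than in PTU (0.68, adjusted p = 0.0168). By edgeR Slc25a35 passed there without the low-count filter (adjusted p = 0.0356) and not with it.

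None of the 6 nucleotide and phosphate carriers, 2 glutathione carriers or 3 uncoupling-protein-like members passed in WAT by edgeR. Values ran from -1.09 (Slc25a25, an ATP-Mg/phosphate carrier, adjusted p = 0.101) to 0.49 (Slc25a30) at 6 h and from -1.01 (Slc25a25, adjusted p = 0.0853) to 0.67 (Slc25a30, adjusted p = 0.121) at 24 h on the log2 scale. Slc25a25 was at 279 in PTU replicate 1 and at 704 to 1335 in the other 3, and without that library it was called at both times (adjusted p = 0.00974 and 0.00566). Slc25a39 was at 0.34 ± 0.11 after 24 h (adjusted p = 0.0605), with its 24 h libraries (3064 to 3731) above those of PTU (2313 to 2737). With all libraries, DESeq2 called Slc25a25 at 6 h and 24 h (adjusted p = 0.0278 and 0.0285). It also called Slc25a23 (0.0497) and Slc25a39 (0.024) at 24 h against PTU. Between 6 h and 24 h it called Slc25a39 (0.0146) and Slc25a5 (0.0266). The pseudogene Slc25a5-ps (0 to 3.57 normalised counts in striatum, 115 to 357 in WAT) was not called, and reads could have been split between it and Slc25a5.

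Of the family's members under other symbols, Ucp1, Ucp2, Ucp3 and Mtch2 rose in WAT. Ucp1, the uncoupling protein of thermogenic adipocytes, had 4.80, 20.4, 268 and 101 normalised counts in PTU, 1641 to 3941 at 6 h and 2877 to 12350 at 24 h, a log2 fold change of 4.80 ± 0.90 (adjusted p = 0.00808) and 6.24 ± 0.96 (adjusted p = 0.0011). Ucp3 had 410 to 550 in PTU, 1284 to 1901 at 6 h and 2219 to 3499 at 24 h, and rose by 1.71 ± 0.16 (adjusted p = 5.22e-05) and 2.45 ± 0.16 (adjusted p = 3.82e-06). Ucp2 rose by 0.54 ± 0.14 (adjusted p = 0.0338) and 0.65 ± 0.14 (adjusted p = 0.00701), the first of these lost in 6 of 12 fits that left out 1 library. Mtch2, an outer-membrane relative of the carriers, rose at 24 h (0.69 ± 0.11, adjusted p = 0.00135), whereas Mtch1 was at -0.24 ± 0.09 (adjusted p = 0.094).

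Partners of the carriers were read from a list of 31 genes of pyruvate, calcium and acylcarnitine transport, citrate use, the malate-aspartate shuttle and the outer-membrane pores, of which 30 were tested in WAT. At 6 h 1 was called, Letm1, a cation exchanger of the inner membrane (0.76 ± 0.12, adjusted p = 0.00272), which is 3.33% of the list against 7.23% of all genes. At 24 h 9 of 30 (30%) were called, 6 higher and 3 lower, against 17.1% of all genes. The higher ones were Letm1 (1.63 ± 0.12), Cpt1b, the outer-membrane enzyme that makes acylcarnitines (1.52 ± 0.46), Mpc2 (0.78 ± 0.18) and Mpc1 (0.76 ± 0.17), the pair that forms the pyruvate carrier, Mdh1 of the malate-aspartate shuttle (0.74 ± 0.14) and Ppif, cyclophilin D (0.71 ± 0.17). Cpt1b is also 1 of the 9 brown or beige markers, and its call was lost in 7 of 12 fits that left out 1 library. Sfxn4 (-1.06 ± 0.19), Micu2, a regulator of the calcium uniporter (-0.38 ± 0.08), and Sfxn2 (-0.35 ± 0.11, lost in 11 of 12 such fits) were lower.

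In striatum far fewer members passed, as did far fewer genes. The tissues cannot be compared by number of calls, because striatum had 2 PTU libraries against 4 in WAT and smaller library totals. At 12 h, 2 of 39 (5.13%) were called, both higher, against 0.96% of all genes (0.733% higher and 0.227% lower), and at 24 h 1 of 39 (2.56%), higher, against 0.348% (0.316% higher and 0.0316% lower). Between 12 h and 24 h no member and no gene was called by edgeR, 7 members and 2309 genes had an unadjusted p under 0.05, and DESeq2 called 0 members. Those groups did not overlap for 5 of 39 members and for 8.3% of all genes. The median log2 fold change of members was 0.05 at 12 h and 0.03 at 24 h, beside 0.01 and 0.02 over all genes.

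Slc25a33 was the member called at both times in striatum. Its normalised counts were 88.0 and 88.0 in the 2 PTU libraries, 182, 133, 150 and 139 at 12 h and 176, 164, 196 and 183 at 24 h. All 8 hormone libraries were above both PTU libraries, and it rose by 0.78 ± 0.15 after 12 h (1.71-fold, adjusted p = 0.0418) and by 1.03 ± 0.15 after 24 h (2.04-fold, adjusted p = 0.025). With 2 PTU libraries these calls were narrow: 9 of 10 fits that left out 1 library lost the first, all but the one without TH 24 h replicate 2, and 5 of 10 the second, those without either PTU replicate, TH 12 h replicate 3 or TH 24 h replicate 1 or 4, while the value stayed at 0.68 to 0.82 and 0.98 to 1.05. Cortical marker sums were also higher in the hormone groups. With the cortical markers as a covariate the values were 0.90 (adjusted p = 0.0208) and 1.13 (adjusted p = 0.00553). With the Y-linked genes as a covariate the 24 h value was 0.91 (adjusted p = 0.0832).

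Slc25a10 was the other call at 12 h. It was a low gene in striatum, at 31.4 and 28.7 normalised counts in PTU, 58.5, 49.9, 71.6 and 61.0 at 12 h and 33.2, 38.1, 39.3 and 44.1 at 24 h. The 12 h libraries lay above all others, and the log2 fold change was 1.00 ± 0.20 (2.00-fold, adjusted p = 0.0482). The call was lost in 9 of 10 fits that left out 1 library, all but the one without TH 24 h replicate 2, with the cortical covariate (0.94, adjusted p = 0.0884) and with the Y-linked covariate (0.99, adjusted p = 0.0791). At 24 h its value was 0.36 ± 0.21 (adjusted p = 0.621).

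At 12 h, 20 of 39 members had striatum libraries that did not overlap those of PTU, where 36.4% of all genes did so, and at 24 h it was 12 of 39 beside 18.2%. Slc25a18, the second glutamate carrier, known from astrocytes, had 142 and 94.0 normalised counts in PTU, 294, 236, 209 and 395 at 12 h and 143, 211, 117 and 268 at 24 h, a log2 fold change of 1.27 ± 0.36 at 12 h that did not pass (adjusted p = 0.0963, 0.0126 by DESeq2). Slc25a22 had 2069 and 1858 in PTU, 2985, 3470, 3260 and 2617 at 12 h and 2193, 3232, 2007 and 2863 at 24 h (0.65 ± 0.19 at 12 h, adjusted p = 0.102). Within the 24 h group Slc25a22 and Slc25a18 were higher in replicates 2 and 4, which had the higher cortical sums (37200 and 22500), than in replicates 1 and 3 (13200 and 12300). At 12 h the cortical sums were 23700 and 22000 in replicates 2 and 3 and 17300 and 19600 in replicates 1 and 4. There Slc25a22 was again higher where the sums were higher, in replicates 2 and 3. Slc25a18 went the other way, higher in replicates 1 and 4 (294 and 395) than in replicates 2 and 3 (236 and 209). With the cortical markers as a covariate the 12 h log2 fold changes were 0.86 for Slc25a18 (adjusted p = 0.221) and 0.27 for Slc25a22 (adjusted p = 0.263). Slc25a23 was at 0.46 ± 0.10 (adjusted p = 0.0656) and Slc25a34, with no substrate assigned, at -0.99 ± 0.26 (adjusted p = 0.0853). By DESeq2 the adjusted p at 12 h was 7.51e-04 for Slc25a23, 0.0347 for Slc25a34 and 0.0295 for Slc25a22. Without TH 24 h replicate 2, the library with the highest cortical sum, 7 members were called at 12 h. They were Slc25a33 and Slc25a10 with Slc25a14, Slc25a18, Slc25a22, Slc25a23 and Slc25a34. Of the X-linked members tested, Slc25a5, Slc25a14 and Slc25a53, none passed with all libraries. The 29 partner genes tested in striatum gave 0 calls at each time by edgeR, with 7 and 6 at an unadjusted p under 0.05, beside 3197 and 1524 of all 15827 genes.

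The response at 24 h was compared between tissues as the difference of the log2 fold changes against PTU, WAT minus striatum, in a single fit of the 22 libraries. It was called for 6 of 38 members (15.8%) against 5.14% of 12766 genes, more positive in WAT for 4 (1.72% of all genes) and less positive for 2 (3.42%). PTU pretreatment of the hormone groups, as listed, differs between the tissues and cannot be told apart from this difference. In striatum, Xist exceeded the Y-linked genes in 1 of 2 PTU libraries and 4 of 4 at 24 h. Cortical marker sums there were 7030 to 11400 in PTU and 12300 to 37200 at 24 h. No covariate for either was fitted to the tissue difference, so these cannot be told apart from it either.

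The difference was largest for Slc25a42, at 1.49 ± 0.25 (adjusted p = 0.00153). In striatum Slc25a42 had 222 and 258 normalised counts in PTU and 269, 340, 283 and 266 at 24 h, a log2 fold change of 0.27 ± 0.13 (adjusted p = 0.56) beside 1.76 in WAT. Slc25a51 differed by 0.85 ± 0.19 (adjusted p = 0.0101), with 1065 and 991 in striatum PTU and 904 to 1031 at 24 h, and Slc25a28 by 0.68 ± 0.14 (adjusted p = 0.00772), with 217 and 209 in striatum PTU and 178 to 245 at 24 h. The log2 fold changes of Slc25a51 and Slc25a28 in striatum were -0.08 ± 0.09 and -0.07 ± 0.14. Slc25a10 differed by -1.20 ± 0.31 (adjusted p = 0.028) and Slc25a16 by -0.52 ± 0.13 (adjusted p = 0.0247), with 614 and 558 in striatum PTU and 598, 592, 517 and 569 at 24 h for the latter.

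Leaving out a striatum PTU library leaves 1 in that group. Without replicate 3, Slc25a51 (0.82), Slc25a28 (0.67), Slc25a10 (-1.24) and Slc25a16 (-0.57) lost their calls, and Slc25a42 kept its call. Without striatum PTU replicate 6 the calls of Slc25a10 (-1.13) and Slc25a16 (-0.46) were lost. By edgeR the Slc25a10 call was also lost without striatum TH 24 h replicate 4 (-1.12, adjusted p = 0.0552). The Slc25a16 call was also lost without the low-count filter (adjusted p = 0.0567). For Slc25a33, with log2 fold changes of 1.24 in WAT and 1.03 in striatum, the difference was 0.22 ± 0.25 (adjusted p = 0.665), which does not show that the responses were alike. Among 29 partner genes, 2 (6.9%) had a called difference, both more positive in WAT, against 5.14% of all genes. They were Letm1, at 1.29 to 1.47 over fits that left out 1 library, and Mdh1, at 0.59 to 0.78. By edgeR the Mdh1 call was lost with the 4 groups of the contrast alone (adjusted p = 0.101). Beyond the numbered symbols, Mtch2 differed by 0.58 ± 0.14 (adjusted p = 0.0238) and Ucp3 by 1.33 ± 0.57 (adjusted p = 0.187). The Mtch2 call was lost without striatum PTU replicate 3 or 6 (adjusted p = 0.0652 and 0.13), with the 4 groups of the contrast alone (0.0546) and without the low-count filter (0.0579).

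**Figure D5:**
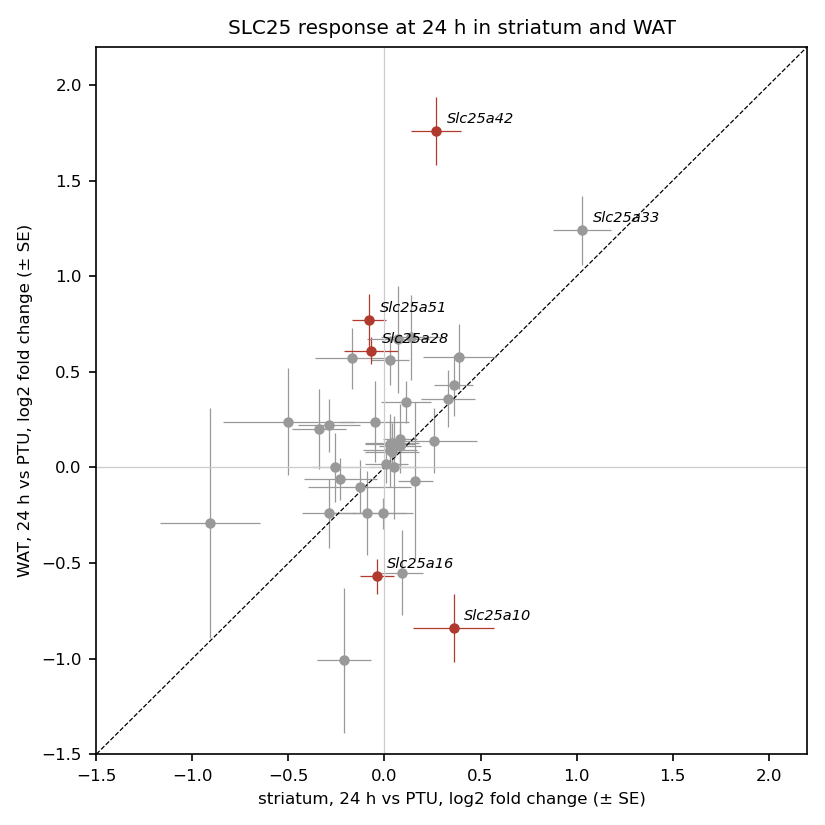
log2 fold change at 24 h against PTU with SE in striatum (x axis) and WAT (y axis) for members tested in both tissues, with a dashed line of equal response. The 5 members in red had a called difference, from Slc25a42 (1.49 above the line) to Slc25a10 (below the line, a difference of -1.20), and Slc25a33 lies near the line at 1.03 and 1.24.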

How the data were processed

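The deposited tables hold raw counts of reads per gene, one for each tissue. Per the labels and the study's methods, the authors extracted RNA with Trizol (WAT) or RNeasy columns (striatum), prepared libraries with the Lexogen SENSE total RNA kit, aligned reads with Bowtie (Bowtie2 2.2.6.2 in the submitters' processing notes) to GRCm38/mm10, removed low-quality alignments and counted with htseq-count. Whether counting used strand is not given in the sources used here. Rows whose symbols a spreadsheet had turned into dates (14 and 15 rows, at most 0.201% of a library's counts) were left out. In WAT, 86 rows copied another row (6.09% of counts), none of them a member's.

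Counts were scaled by TMM over all genes and tested with edgeR 4.0.16 (R 4.3.3): glmQLFit and glmQLFTest, 3 groups of a tissue in one fit, genes with a mean normalised count above 10, Benjamini-Hochberg adjustment over all genes tested, threshold 0.05. A normalised count is a count divided by its library's effective size and multiplied by the tissue's mean effective size. The SE of a log2 fold change is its size divided by the root of F. The tissue difference used all 22 libraries and symbols found once in each table. DESeq2 1.42.0 was an alternative. The scripts were tested on simulated data. Exon lengths, coordinates and overlaps came from GENCODE M21, where all 48 symbols matched, and promoter windows from RefSeq.

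Members named in full were those called in any comparison, and others were named by level or by how near they came. Counts cover all members, but the values of 1 member are not reported here. Substrate groups and marker and partner lists were written by hand. Members and lists were chosen with earlier results of these data known. Libraries of a group differed by more than sampling noise (chi-square per degree of freedom 3.69 to 43.8 in striatum, 10.7 to 95.6 in WAT), and p-values measure the spread between libraries, which the labels do not tie to separate animals. Deviations from the group mean in same-numbered libraries had correlations of -0.395 to 0.267 over 6 striatum pairs and -0.472 to 0.394 over 12 WAT pairs. These went both ways, and pairs of unlike number were not looked at for comparison. The numbers were not taken to pair libraries, and whether they do was not settled.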

Additional observations from a re-analysis of the deposited data

Results flagged for a closer look

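In 193 groups of 4 libraries (each member reported, in each group of that size), 11 had 1 library far from the other 3 by Dixon's criterion, a share of 5.7%, where chance gives about 1 in 20. In WAT these were Slc25a10 in TH 24 h replicate 2 (normalised count 2110, the others 3570 to 3620), Slc25a22 and Slc25a39 in TH 24 h replicate 3 (2370, the others 1700 to 1740, and 3730, the others 3060 to 3130) and Slc25a29 in TH 6 h replicate 4 (59.1, the others from 73.2). In the WAT PTU group they were Slc25a33 in replicate 4 (145), Slc25a34 in replicate 2 (43.1) and Slc25a44 in replicate 1 (2020, the others 1100 to 1220). In striatum they were Slc25a1 in TH 12 h replicate 1 (505, the others 450 to 458), Slc25a17 and Slc25a34 in TH 24 h replicate 2 (298, the others 256 to 257, and 35.9), and Slc25a38 in TH 24 h replicate 1 (57.7). The library with the low Slc25a10 count had a skeletal muscle sum of 325000, and without it Slc25a10 was still called lower at 24 h than in PTU by edgeR.

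The response at 24 h differed between tissues by the interaction test for Slc25a42 (1.49), Slc25a51 (0.85), Slc25a28 (0.68) and Mtch2 (0.58), more positive in WAT, and for Slc25a10 (-1.20) and Slc25a16 (-0.52), less positive in WAT, all as differences of log2 fold changes. The Mtch2 call was lost without striatum PTU replicate 3 or 6 (adjusted p = 0.0652 and 0.13 by edgeR), with the 4 groups alone (0.0546) and without the low-count filter (0.0579).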

How the results depend on the processing

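The count of members called against PTU at 12 h in striatum was 2, and it became 7 by the DESeq2 Wald test, 7 with the 2 groups of the contrast alone, 1 with the Y-linked covariate, 1 with the cortical marker covariate and 0 to 7 when 1 library was left out (7 without TH 24 h replicate 2 and 0 without any other). At 24 h in striatum the count of 1 became 2 by DESeq2, 0 with the 2 groups alone, 0 with the Y-linked covariate and 0 to 1 without 1 library. Between 12 h and 24 h the count of 0 became 1 with the cortical covariate (Slc25a46) and stayed at 0 in every fit without 1 library. In WAT the 7 calls at 6 h ran from 7 to 9 without 1 library, the 11 at 24 h became 17 by DESeq2 and ran from 8 to 16, and the 5 between the times became 9 with PTU replicates 1 and 4 left out and ran from 3 to 6 (3 without TH 6 h replicate 1, 2 or 3 or TH 24 h replicate 3). The 6 tissue differences became 3 with the 4 groups of the contrast alone, losing Slc25a10, Slc25a16 and Slc25a51, and ran from 2 to 7. With the replicate block the counts were 0 at 12 h and 0 at 24 h in striatum, 3 between the WAT times and 0 for the tissue difference. Whether same-numbered libraries are paired was not settled, and the block takes degrees of freedom. In 1 result the direction changed: Slc25a12 in WAT at 6 h, -0.98 with all libraries, was 0.11 with PTU replicates 1 and 4 left out. Of 121 named results, 120 kept direction and call with DESeq2 size factors, 114 without the low-count filter and 106 by DESeq2, where the other 15 became calls. The skeletal muscle covariate kept 66 of 78 WAT results and lost 12 calls. The cortical covariate and the fit without PTU replicates 1 and 4 were chosen after seeing the data.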
